A study of Mus musculus with 6 samples.

Results

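Solute carriers are a large group of membrane transport proteins, and the genes of 212 of them were compared between microglia-enriched and total hippocampal RNA. Members were the protein-coding genes whose symbol starts with Slc and a family number, without the mitochondrial carriers of family SLC25, which gave 212 of the 15388 genes of the table, in 45 families. RNA came from the hippocampus of 3 mice, numbered 201, 207 and 208, of genotype Cx3cr1-cre/ERT2+; NuTRAP+ at about 3 months of age, with males and females in the study. All had received tamoxifen, so that the Cx3cr1 promoter, active in microglia and in other macrophages and monocytes, drove recombination by the inducible Cre and the NuTRAP allele put an EGFP-tagged ribosomal protein on the ribosomes of recombined cells. Each animal gave 1 Input library, from the cleared homogenate, and 1 Positive library, from the ribosomes that anti-GFP beads bound (translating ribosome affinity purification, TRAP). Both groups thus carry the transgenes and the tamoxifen, and a Cre-negative control was not analysed here.

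Solute carriers move sugars, amino acids, ions, metals, nucleosides, vitamins and transmitters across the plasma membrane and the membranes of organelles. Most couple the solute to a sodium, proton or chloride gradient, exchange it for another solute or let it run down its own gradient. In brain, neurons use vesicular carriers to fill synaptic vesicles, astrocytes clear glutamate and GABA, endothelial cells bring glucose and amino acids through the blood-brain barrier, and the choroid plexus secretes cerebrospinal fluid by bicarbonate and chloride carriers. Microglia, the resident macrophages, have lysosomes that export metals, nucleosides and peptides after phagocytosis.

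Libraries held 14879734 to 17757918 reads, and the members took 1.52% to 1.60% of them in the Input libraries and 1.49% to 1.52% in the Positive libraries. The microglial identity of the Positive fraction was checked with a list of cell-sorted microglial genes, from which solute carriers were left out. Of its 231 genes, 227 were higher in Positive, and their summed scaled reads, that is reads after division by the size factor of their library, were 77473, 77190.1 and 75381 in the Input and 643826, 762953 and 531969 in the Positive of animals 201, 207 and 208. Genes of several other cells moved too. All 10 endothelial markers were higher (median log2 fold change 1.88), with sums of 2656 to 3055 in Input and 5812 to 11613 in Positive. The 8 markers of border macrophages, in which the Cx3cr1 promoter is also active, were all higher (median 4.16), with sums of 205 to 276 and 2854 to 6148. All 8 choroid plexus markers were lower (median -1.92), with sums of 28649 to 38449.5 and 7102 to 8657. All 5 erythroid markers and 5 of 7 meningeal fibroblast markers were lower, whereas 1 of 10 mural markers was higher and 1 lower. Of 184 cell-sorted oligodendrocyte genes tested, without solute carriers, 10 were higher and 135 lower (median -0.79). Of 97 such neuronal genes, 21 were higher and 18 lower (median -0.01). The neuronal genes had sums of 396700 to 407081 in Input and 357351 to 405518 in Positive. Of 7 monocyte and neutrophil markers 1 was measured, at 2.10 to 12.2 scaled reads in Input and 20.8 to 24.7 in Positive. Both fractions of an animal came from the same homogenate, so these are shifts in the RNA recovered and not in numbers of cells. Bulk libraries do not show which cells gave the RNA, and why each list moved was not tested.

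Of the 211 solute carriers tested, 45 were higher and 63 lower in Positive (quasi-likelihood test of edgeR with 3 libraries in each fraction, at an adjusted p-value under 0.05). These are 21.3% and 29.9% of the members, against 23.9% and 22% of the 15343 genes tested, and 46% of all genes passed in either direction. The median log2 fold change of the members was -0.13, against -0.01 over all genes. When libraries were scaled by their total reads in place of the size factors, 34 members were higher and 77 lower, so that the balance between directions depended on the scaling. A rise of over 5-fold was reached by 5 members, all among the 45, and by 3.75% of all genes. Of the members called higher, 17 rose by more than 1 on the log2 scale, and of those called lower 8 fell by more than 1. The shares of all genes past these sizes were not counted. The 3 Positive libraries did not overlap the 3 Input libraries in 124 of the 211 members (58.8%), against 56.5% of all genes. Calls in both directions occurred within 16 of the 45 families. Counts by family, class and list are to be read beside the 23.9% and 22% of all genes called higher and lower.

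The largest rises belonged to Slc2a5, Slc11a1, Slc15a3, Slc7a7 and Slc29a3, of which 3 encode carriers of lysosomes or phagosomes. Slc2a5, which encodes the fructose carrier GLUT5 (chr4:150119283-150144169, plus strand, mm10), had 59.2, 77.0 and 72.3 scaled reads in the Input of animals 201, 207 and 208 and 1750.1, 2267 and 1467 in their Positive. Every Positive library was far above every Input library, a 26.2-fold rise (log2 fold change 4.71 ± 0.17 (SE), edgeR adjusted p-value 4.27e-10). Slc11a1, the metal carrier of phagosomes also named NRAMP1 (chr1:74375195-74386062, plus strand), had 50.0, 28.3 and 33.6 scaled reads in the Input of animals 201, 207 and 208 and 667, 770.1 and 442 in their Positive. The groups did not overlap, and the log2 fold change was 4.07 ± 0.24 (SE) (adjusted p-value 2.72e-08 by edgeR). Slc15a3, a lysosomal carrier of histidine and small peptides (chr19:10839727-10859362, plus strand), had 32.9, 44.2 and 30.4 scaled reads in Input and 572, 702 and 407 in Positive, in the same order of animals, a rise of 3.96 ± 0.23 (SE) on the log2 scale. Slc7a7, the light chain y+LAT1 that exports cationic amino acids (chr14:54369442-54417780, minus strand), had 24.3, 30.3 and 18.1 scaled reads in Input and 313, 399 and 275 in Positive, a rise of 3.75 ± 0.22 (log2, SE). Slc29a3, the nucleoside carrier of lysosomes (chr10:60712072-60752794, minus strand), had 167, 139 and 126 scaled reads in Input and 1126, 1283 and 818 in Positive, a rise of 2.90 ± 0.17 (log2, SE). In each of these 5 genes the Positive library of animal 208 was the lowest of the 3 Positive libraries. That library also had the lowest sums of the microglial, border macrophage and endothelial lists among the Positive libraries. The erythroid sum was lowest in the Positive library of animal 201.

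**Figure D1:**
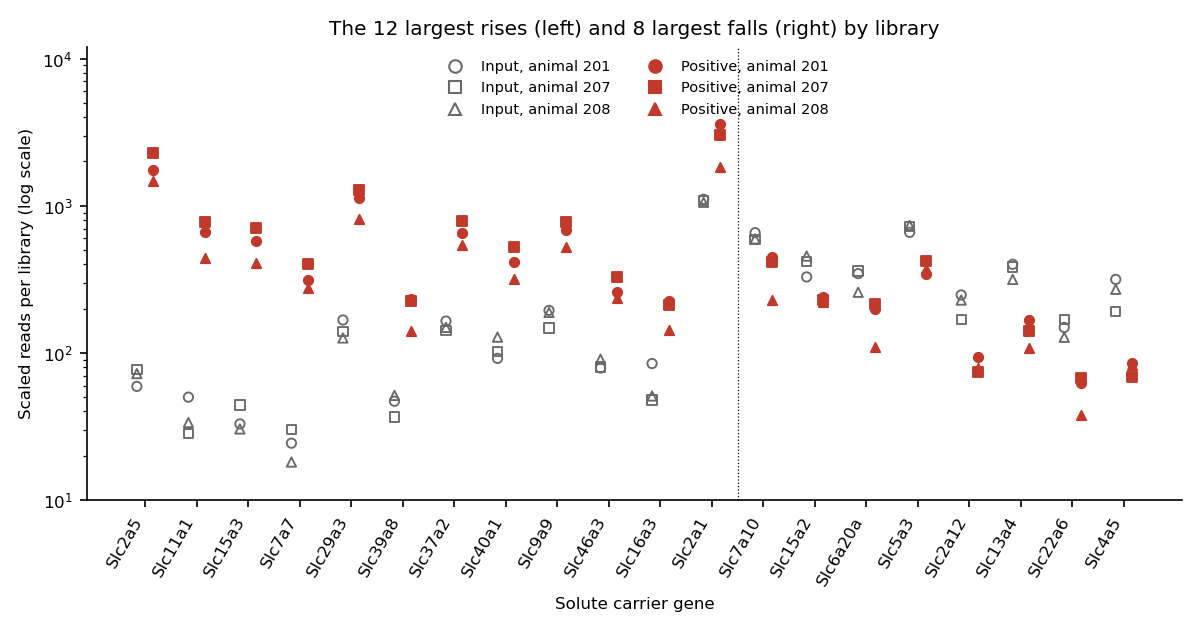
Scaled reads per library on a log axis for the 12 members with the largest and the 8 with the smallest log2 fold changes among members that passed the test, averaged 100 scaled reads or more and moved one way in all 3 animals. Open symbols are Input and filled symbols Positive, with one symbol shape per animal. Input and Positive do not overlap in any of the 20, and Slc2a5 goes from 59.2 to 77.0 scaled reads in Input up to 1467 to 2267 in Positive.

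Among members that averaged 100 scaled reads or more, the 7 next largest rises were Slc39a8, Slc37a2, Slc40a1, Slc9a9, Slc46a3, Slc16a3 and Slc2a1. They ran from 2.16 to 1.38 on the log2 scale. Slc39a8, the zinc and manganese importer ZIP8, had 46.9, 36.6 and 51.4 scaled reads in Input and 233, 227 and 141 in Positive, a log2 fold change of 2.16 ± 0.23 (SE). Slc37a2, a glucose-6-phosphate and phosphate exchanger of the endoplasmic reticulum, had 165, 142 and 149 scaled reads in Input and 651, 785 and 544 in Positive, with 2.12 ± 0.15 (log2, SE). Slc40a1 encodes ferroportin, the cellular iron exporter, and had 91.8, 102 and 128 scaled reads in Input and 414, 527 and 319 in Positive, with 1.97 ± 0.19 (log2, SE). In these 3 genes the lowest Positive library, that of animal 208, was above the highest Input library. Slc9a9 encodes the endosomal sodium-proton exchanger NHE9. It had 195, 148 and 188 scaled reads in Input and 686, 775 and 525 in Positive, with 1.91 ± 0.16 (log2, SE). Slc46a3, a lysosomal solute carrier, had 78.9, 80.3 and 90.5 scaled reads in Input and 259, 328 and 236 in Positive, with 1.73 ± 0.17 (log2, SE). Slc16a3, the lactate carrier MCT4, had 84.7, 47.9 and 50.9 scaled reads in Input and 226, 212 and 142 in Positive, with 1.66 ± 0.25 (log2, SE). The fractions did not overlap in these genes either, and animal 208 again had the lowest Positive value. Below a mean of 100 scaled reads, Slc10a3 rose by 1.55 ± 0.25 (log2, SE) as well.

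As examples, the starts of the 2 largest rises and of Slc37a2 are shown. So is the start of the largest fall among members that averaged 100 scaled reads or more. Slc37a2 is among the rises named above, but no rule chose it for display here, and larger rises were passed over. The starts are given as windows of 300 bases, from 250 bases before to 50 after an annotated start. The windows are from RefSeq on GRCm38.p6 (mm10), in the direction of the gene. Capitals mark GAGGAA on either strand, the core of sites of the myeloid factor PU.1. The windows lie at chr4:150119094-150119393 (plus), chr1:74374953-74375252 (plus), chr9:37255689-37255988 (minus) and chr6:83237125-83237424 (plus), and that of Slc4a5 is at a start inside the span of the gene given further on.
Slc2a5: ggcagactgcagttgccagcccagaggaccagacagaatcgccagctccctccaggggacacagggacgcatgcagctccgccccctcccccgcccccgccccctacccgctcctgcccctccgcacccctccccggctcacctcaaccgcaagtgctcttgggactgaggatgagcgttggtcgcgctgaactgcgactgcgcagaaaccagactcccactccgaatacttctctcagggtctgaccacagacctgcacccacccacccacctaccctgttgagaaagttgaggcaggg
Slc11a1: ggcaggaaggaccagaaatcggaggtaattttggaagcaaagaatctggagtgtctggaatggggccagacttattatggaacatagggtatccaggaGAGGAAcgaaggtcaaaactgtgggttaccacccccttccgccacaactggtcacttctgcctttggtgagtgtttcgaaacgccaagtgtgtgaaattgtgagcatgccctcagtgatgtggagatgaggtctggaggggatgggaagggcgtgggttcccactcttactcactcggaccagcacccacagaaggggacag
Slc37a2: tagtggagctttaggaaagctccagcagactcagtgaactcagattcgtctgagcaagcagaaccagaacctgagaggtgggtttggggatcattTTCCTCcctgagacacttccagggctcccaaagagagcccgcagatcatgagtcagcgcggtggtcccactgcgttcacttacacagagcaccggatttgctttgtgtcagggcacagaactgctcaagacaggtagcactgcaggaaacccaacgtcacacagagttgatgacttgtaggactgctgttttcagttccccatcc
Slc4a5: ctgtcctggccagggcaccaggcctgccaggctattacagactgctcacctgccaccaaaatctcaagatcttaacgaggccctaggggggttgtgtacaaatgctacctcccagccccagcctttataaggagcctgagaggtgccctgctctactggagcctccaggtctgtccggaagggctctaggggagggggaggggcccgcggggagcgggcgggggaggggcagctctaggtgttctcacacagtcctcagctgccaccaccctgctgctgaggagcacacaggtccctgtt
The windows of Slc11a1 and Slc37a2 hold GAGGAA once each, that of Slc37a2 on the opposite strand, and those of Slc2a5 and Slc4a5 do not hold it. A window was found for 166 of the 211 members tested, with 216 windows in all, and a gene was counted if any of its windows held the letters. GAGGAA was present in 10 of 32 members called higher (31.2%), in 12 of 51 called lower (23.5%) and in 30.4% of the 11242 tested genes with a window. The longer GAGGAAGT, which contains GAGGAA, was in 1 of the 32 and 1 of the 51, and in 3.44% of tested genes. The palindrome TCACGTGA, the core of the CLEAR element of lysosomal genes, was in 3 members, Slc35a5, Slc36a1 and Slc37a3, none of which passed the test, and in 2.07% of tested genes. These matches are descriptions of the windows.

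Levels were compared between genes as scaled reads per kilobase of exon. The highest solute carrier of both fractions was Slc17a7, the vesicular glutamate carrier VGLUT1 of excitatory neurons, at 4325 ± 497 in Input and 4418 ± 424 in Positive (SD, n = 3). Slc1a2, the astrocytic glutamate carrier GLT-1, was the next in Positive at 2901 ± 338, and Slc22a17, which encodes the lipocalin-2 receptor, the third at 2246 ± 136. The 10 highest members of the 2 fractions shared 7 genes. Slc2a5 went from rank 180 of 212 in Input, at 20.4 ± 2.72, to rank 13 in Positive, at 537 ± 119. Slc2a1, the glucose carrier GLUT1, went from rank 30, at 309 ± 7.44, to rank 7, at 804 ± 255. Slc11a1, Slc15a3 and Slc7a7, in spite of their large fold changes, reached 169 ± 45.2, 102 ± 27 and 99.2 ± 19.2 per kilobase in Positive, ranks 60, 101 and 105. The Positive fraction thus kept the most abundant neuronal and astrocytic carriers of the tissue at the head of the order.

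**Figure D2:**
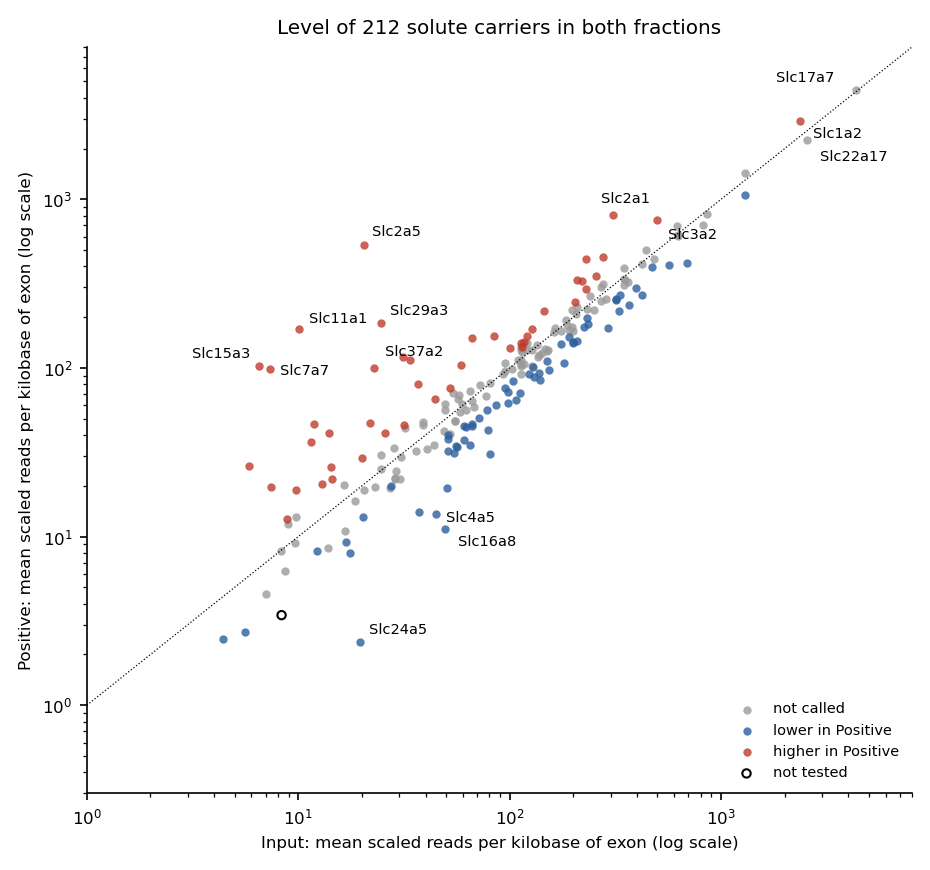
Mean scaled reads per kilobase of exon of the 212 solute carriers, Input on the horizontal and Positive on the vertical log axis, with each point a gene coloured by its call and the dotted line marking equal levels. Slc17a7, Slc1a2 and Slc22a17 lie at the upper end close to the line, and Slc2a5, Slc11a1, Slc15a3 and Slc7a7 lie far above it from low levels in Input.

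The sugar carriers went in different directions. Of 19 tested, 5 were higher and 4 lower, with a median log2 fold change of -0.05. Slc2a1 had 1107, 1089.8 and 1056 scaled reads in the Input of animals 201, 207 and 208 and 3591, 3024 and 1840.5 in their Positive. All 3 Positive libraries were above Input, with a log2 fold change of 1.38 ± 0.18 (SE) (adjusted p-value 4.15e-05 by edgeR). GLUT1 is the glucose carrier of brain endothelium, and the endothelial markers had sums of 11613, 9145 and 5812 in the same 3 Positive libraries, highest in animal 201 and lowest in animal 208 as Slc2a1 was. In the Positive of animals 201, 207 and 208, mural markers summed to 3988, 3562 and 2011, in the same order. Choroid plexus markers (8657, 8104 and 7102) and the astrocyte sorting list without solute carriers (243498, 229245 and 185433) also had this order. The microglial and border macrophage sums were highest in the Positive of animal 207. The part of endothelial RNA in the rise of Slc2a1 was not tested. Slc2a3, the neuronal glucose carrier GLUT3, had 2472, 2542 and 2541 scaled reads in Input and 2115, 2121 and 2517 in Positive, which overlapped (log2 fold change -0.16 ± 0.08 (SE), edgeR adjusted p-value 0.131). Slc2a3 passed as lower without the Positive library of animal 208 (0.00947), without both libraries of 208 (0.0441) and under total count scaling (0.0302). Slc2a13, a proton-coupled myo-inositol carrier, rose by 0.41 ± 0.10 (log2, SE), and Slc5a3, the sodium-coupled myo-inositol carrier, fell by 0.89 ± 0.11 (log2, SE) from 660.0, 722 and 736 to 344, 424 and 374 scaled reads. The rise of Slc2a13 did not pass when both libraries of animal 207 were left out (edgeR adjusted p-value 0.0662). Slc2a12, the glucose carrier GLUT12, fell the most of the sugar carriers, with 248, 168 and 229 scaled reads in Input and 93.7, 74.4 and 78.9 in Positive and a log2 fold change of -1.38 ± 0.19 (SE).

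The families SLC3 and SLC7 held 12 amino acid carriers. Of these, 7 form heteromeric carriers, in which a light chain of SLC7 pairs with a heavy chain of SLC3, and 4 were higher and 3 lower. The other 5 belong to the cationic branch of SLC7, which needs no heavy chain, and 1 of them passed, Slc7a2, as lower. The heavy chain Slc3a2 (4F2hc) was higher, with 1767, 1768 and 1755 scaled reads in Input and 2814, 2862 and 2302 in Positive and a log2 fold change of 0.59 ± 0.09 (SE) (edgeR adjusted p-value 1.58e-04). Of its light chains, Slc7a7 had the largest rise. Slc7a8 (LAT2) went from 1182, 1069 and 1185 to 2044, 2450.2 and 2148 scaled reads, a rise of 0.95 ± 0.09 (log2, SE), and Slc7a5 (LAT1) from 1019, 949 and 1103 to 1791, 1695 and 1579.7, a rise of 0.72 ± 0.09 (log2, SE). The other light chains tested that pair with 4F2hc fell. Slc7a6 (y+LAT2), the close relative of y+LAT1, went from 486, 512 and 476 to 271, 315 and 301, a log2 fold change of -0.73 ± 0.11 (SE). Slc7a11 (xCT), the cystine-glutamate exchanger, went from 838, 879.5 and 824 to 583, 594 and 381, with -0.71 ± 0.14 (log2, SE). Slc7a10 (Asc-1), which exchanges small neutral amino acids such as glycine and D-serine, went from 656, 587 and 596 to 451, 414 and 230.0, with -0.75 ± 0.19 (log2, SE). No light chain of this group that was named here overlapped between fractions. The proton- and sodium-coupled amino acid families had 2 of 11 members higher and 4 lower. Slc38a10 rose by 0.68 ± 0.08 (log2, SE), whereas Slc38a2 (SNAT2), a sodium-coupled carrier of neutral amino acids, had 1696, 1790.3 and 1795 scaled reads in Input and 1254, 1287 and 1229 in Positive, with -0.49 ± 0.07 (log2, SE).

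Metal carriers had 8 of 29 members higher and 7 lower (27.6% and 24.1%), near the 23.9% and 22% of all genes. Carriers of iron went both ways. Slc11a1 and ferroportin rose, and Slc11a2, the divalent metal carrier DMT1 that brings iron into the cytosol, had 811, 830.4 and 813 scaled reads in Input and 679, 631 and 613 in Positive, with a log2 fold change of -0.35 ± 0.09 (SE). The call of Slc11a2 was lost without both libraries of animal 207 (edgeR adjusted p-value 0.0647). Of 12 other genes of iron handling, 5 were higher and 3 lower. Ferritin heavy chain Fth1, the iron store, went from 20869, 22341 and 23089 to 6515, 7021 and 6754 scaled reads (log2 fold change -1.71 ± 0.09 (SE)), the light chain Ftl1 changed by -0.72 ± 0.08 (log2, SE) and the transferrin receptor Tfrc by -0.33 ± 0.09 (log2, SE). Hfe, a regulator of iron uptake, rose by 2.02 ± 0.22 (log2, SE), the heme oxygenase Hmox1 by 1.58 ± 0.18 (log2, SE), transferrin (Trf) by 1.43 ± 0.15 (log2, SE), the ferroxidase ceruloplasmin (Cp) by 1.12 ± 0.20 (log2, SE) and the ferritin receptor Ncoa4 by 0.61 ± 0.10 (log2, SE). Among zinc carriers, Slc39a10 (ZIP10) rose by 0.35 ± 0.09 (log2, SE) beside Slc39a8, but without the Input library of animal 207 its adjusted p-value was 0.0551 and without both libraries of that animal 0.0602 (edgeR). Slc30a9 fell, with 2839.6, 2949 and 2937 scaled reads in Input and 2147, 2262 and 2325 in Positive and -0.37 ± 0.07 (log2, SE).

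Nucleoside, peptide and vitamin carriers held several of the rises. Of 4 nucleoside carriers, Slc29a3 and Slc29a1 were higher and Slc29a4 lower. Slc29a1, the equilibrative nucleoside carrier ENT1 of the plasma membrane, went from 271, 256 and 271 to 626, 643 and 541 scaled reads, a rise of 1.18 ± 0.11 (log2, SE). Slc29a4, a carrier of monoamines, went from 638, 524 and 621 to 384, 398 and 465, with -0.52 ± 0.12 (log2, SE). Of 11 peptide, vitamin and heme carriers, 5 were higher and 4 lower. Within the peptide family, Slc15a4, the lysosomal relative of Slc15a3, had 307, 313 and 315 scaled reads in Input and 478, 618 and 556 in Positive, a rise of 0.82 ± 0.12 (log2, SE), and Slc15a2, the plasma membrane peptide carrier PEPT2 of astrocytes and choroid plexus, had 328, 419 and 455 scaled reads in Input and 239.7, 228 and 223 in Positive, with -0.80 ± 0.14 (log2, SE). Slc46a1, the proton-coupled folate carrier, rose by 1.12 ± 0.16 (log2, SE) beside its family member Slc46a3. Slc48a1, which moves heme out of lysosomes and was in the oligodendrocyte sorting list, went from 2258, 1706 and 1749 to 1125, 1119 and 1218, with -0.72 ± 0.11 (log2, SE).

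Grouped by place in the cell, 5 of 11 lysosomal carriers were higher and 2 lower, with a median of 0.22, and 3 of the 5 members that rose over 5-fold were among them. These 11 were Slc2a6, Slc11a1, Slc15a3, Slc15a4, Slc17a5, Slc29a3, Slc36a1, Slc38a7, Slc38a9, Slc46a3 and Slc48a1. Slc36a1, the proton-coupled amino acid carrier PAT1, had 1139, 1176 and 1151 scaled reads in Input and 1143, 1180.4 and 1179 in Positive, with a log2 fold change of 0.01 ± 0.07 (SE) (adjusted p-value 0.894 by edgeR). Proton-coupled carriers of lysosomes use the proton gradient of the vacuolar ATPase. Of its 16 subunits, 3 were higher and 1 lower, from -0.32 for Atp6v0e2 to 0.44 for Atp6v0a2, with a median of 0.13. The log2 fold changes of the lysosomal carriers ranged from -0.72 to 4.07, a wider range than the subunits of the pump.

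**Figure D3:**
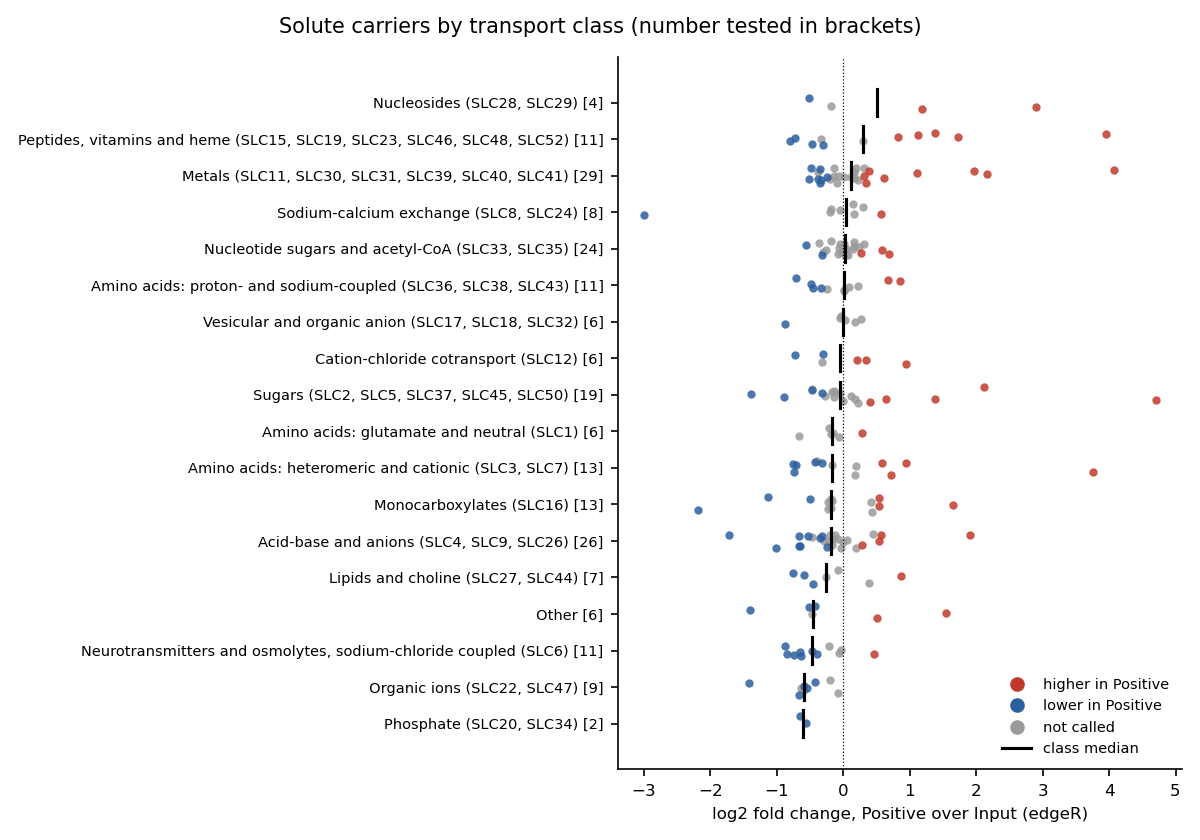
Log2 fold change of Positive over Input for the 211 solute carriers tested, one row per transport class in the order of the class median (black bar), with each point a gene coloured by its call and the 4 members that are not carriers included. The nucleoside class has the highest median and the phosphate class the lowest, and most classes hold calls in both directions.

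Of 13 monocarboxylate carriers, 3 were higher and 3 lower. Slc16a3 rose, as given above. Slc16a1 (MCT1), the lactate and ketone carrier of endothelium and glia, had 490.1, 652 and 666 scaled reads in Input and 536, 542 and 463 in Positive, with -0.23 ± 0.13 (log2, SE) (adjusted p-value 0.151 by edgeR), and passed as lower without the Input library of animal 201 (0.0235) and without both libraries of 201 (0.0334). Slc16a6, in the microglia sorting list, had 264, 221 and 283 scaled reads in Input and 342, 468 and 305 in Positive, a rise of 0.54 ± 0.16 (log2, SE). It no longer passed without the Input library of animal 207, without the Positive library of 207, or without both libraries of 201 or of 207 (edgeR adjusted p-values 0.0812, 0.103, 0.0504 and 0.31). Slc16a8 (MCT3), a lactate carrier of retinal pigment epithelium and choroid plexus, was lower, with 106, 102 and 131 scaled reads in Input and 34.4, 14.9 and 25.9 in Positive and a log2 fold change of -2.18 ± 0.28 (SE). Of the chaperones that bring these carriers to the membrane, embigin (Emb) fell from 495, 478 and 480.4 to 302, 308 and 302 (log2 fold change -0.67 ± 0.10 (SE)), and basigin (Bsg) and neuroplastin (Nptn) had log2 fold changes of 0.07 ± 0.08 (SE) and 0.06 ± 0.09 (SE) and did not pass.

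The largest falls at a mean of at least 100 scaled reads included several carriers known from epithelia. Slc4a5, the sodium-bicarbonate cotransporter NBCe2 of the choroid plexus (chr6:83219828-83304945, plus strand), had 316, 191 and 271 scaled reads in the Input of animals 201, 207 and 208 and 85.3, 68.1 and 83.1 in their Positive. The groups did not overlap, and the fitted level in Positive was 30.4% of that in Input (log2 fold change -1.72 ± 0.20 (SE), edgeR adjusted p-value 1.75e-05). Slc22a6, the organic anion exchanger OAT1, had 149, 168 and 128 scaled reads in Input and 61.9, 67.9 and 37.7 in Positive, with -1.41 ± 0.23 (log2, SE). Slc13a4, a sodium-coupled sulfate carrier, had 400.0, 383 and 316 scaled reads in Input and 168, 141 and 108 in Positive, with -1.40 ± 0.17 (log2, SE). Slc6a20a, a proline and imino acid carrier, had 346, 360.4 and 258 scaled reads in Input and 199, 217 and 110.5 in Positive, with -0.87 ± 0.22 (log2, SE), and its reads are uncertain because Slc6a20b is a near copy. In the same libraries the median log2 fold change was -1.92 for the choroid plexus list and -0.69 for the meningeal fibroblast list. The part of choroid plexus and meningeal RNA in these falls was not tested. Slc24a5, a potassium-dependent sodium-calcium exchanger of pigment cells, had the largest fall of any member. It had 53.0, 40.4 and 44.1 scaled reads in the Input of animals 201, 207 and 208 and 0, 9.30 and 7.27 in their Positive, a log2 fold change of -3.0 ± 0.50 (SE), the only member lower by over 5-fold. Its mean is below 100 scaled reads, so that it was named only after its values were seen.

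The bicarbonate, proton and anion carriers of SLC4, SLC9 and SLC26 had 9 of 23 members lower and 2 higher, Slc9a9 and Slc26a2. Slc4a2, the anion exchanger AE2, went from 1444, 1109 and 1271 to 933, 821 and 660.1 scaled reads, with -0.66 ± 0.13 (log2, SE). Slc4a4 (NBCe1), an astrocytic sodium-bicarbonate cotransporter, had 2461, 2306 and 2487 scaled reads in Input and 2163, 1982 and 1532 in Positive, with -0.35 ± 0.11 (log2, SE). Its adjusted p-value was 0.0576 without the Input library of animal 201, 0.0657 without that of 208, and 0.062 and 0.106 without both libraries of 207 and of 208 (edgeR). The cation-chloride cotransporters set the chloride level of neurons and the volume of cells, and 3 of 6 were higher and 2 lower. Slc12a2 (NKCC1), which loads chloride, went from 1479, 1557 and 1527 to 940.1, 1063 and 764, with -0.72 ± 0.11 (log2, SE). Slc12a5 (KCC2), the neuronal chloride exporter, went from 9953, 9525 and 9652 to 7966, 7200.1 and 8477, with -0.30 ± 0.08 (log2, SE), and did not pass without both libraries of animal 201 or of 207 (edgeR adjusted p-values 0.082 and 0.12). Slc12a7 (KCC4) had 107, 163 and 102 scaled reads in Input and 276, 272 and 172 in Positive, a rise of 0.95 ± 0.22 (log2, SE), and its adjusted p-value by edgeR was 0.0653 without both libraries of animal 201. The sodium-potassium ATPase maintains the gradient that most of these carriers use. Of its 6 subunit genes, 4 were lower, among them the beta subunit Atp1b2 (-0.33 ± 0.10 (log2, SE)).

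Both sodium-coupled phosphate carriers tested were lower. Slc20a1 went from 2383, 2280.4 and 2444 to 1625, 1575 and 1329 scaled reads, with -0.65 ± 0.09 (log2, SE), and Slc20a2 from 919, 811 and 825 to 586, 563 and 586, with -0.56 ± 0.09 (log2, SE). Organic ion carriers had 5 of 9 members lower and none higher by edgeR (0 at an unadjusted p-value under 0.05 and 0 by DESeq2), with a median of -0.58. Slc22a4, Slc22a5 and Slc22a21 are close relatives, and their reads are uncertain. The choline and fatty acid families had 1 of 7 members higher and 3 lower. Slc44a2, a choline carrier-like protein, rose from 717, 741 and 729 to 1380.2, 1500.1 and 1137, with 0.88 ± 0.10 (log2, SE), and Slc44a1, the choline carrier of its family in the oligodendrocyte sorting list, went from 1382, 1173 and 1195 to 812, 720.1 and 703, with -0.75 ± 0.09 (log2, SE). The families SLC33, of acetyl-CoA, and SLC35, which holds the nucleotide sugar carriers, stayed in a narrow range. Of 24 tested, 3 were higher and 2 lower, and all log2 fold changes lay between -0.56 and 0.69.

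**Figure D4:**
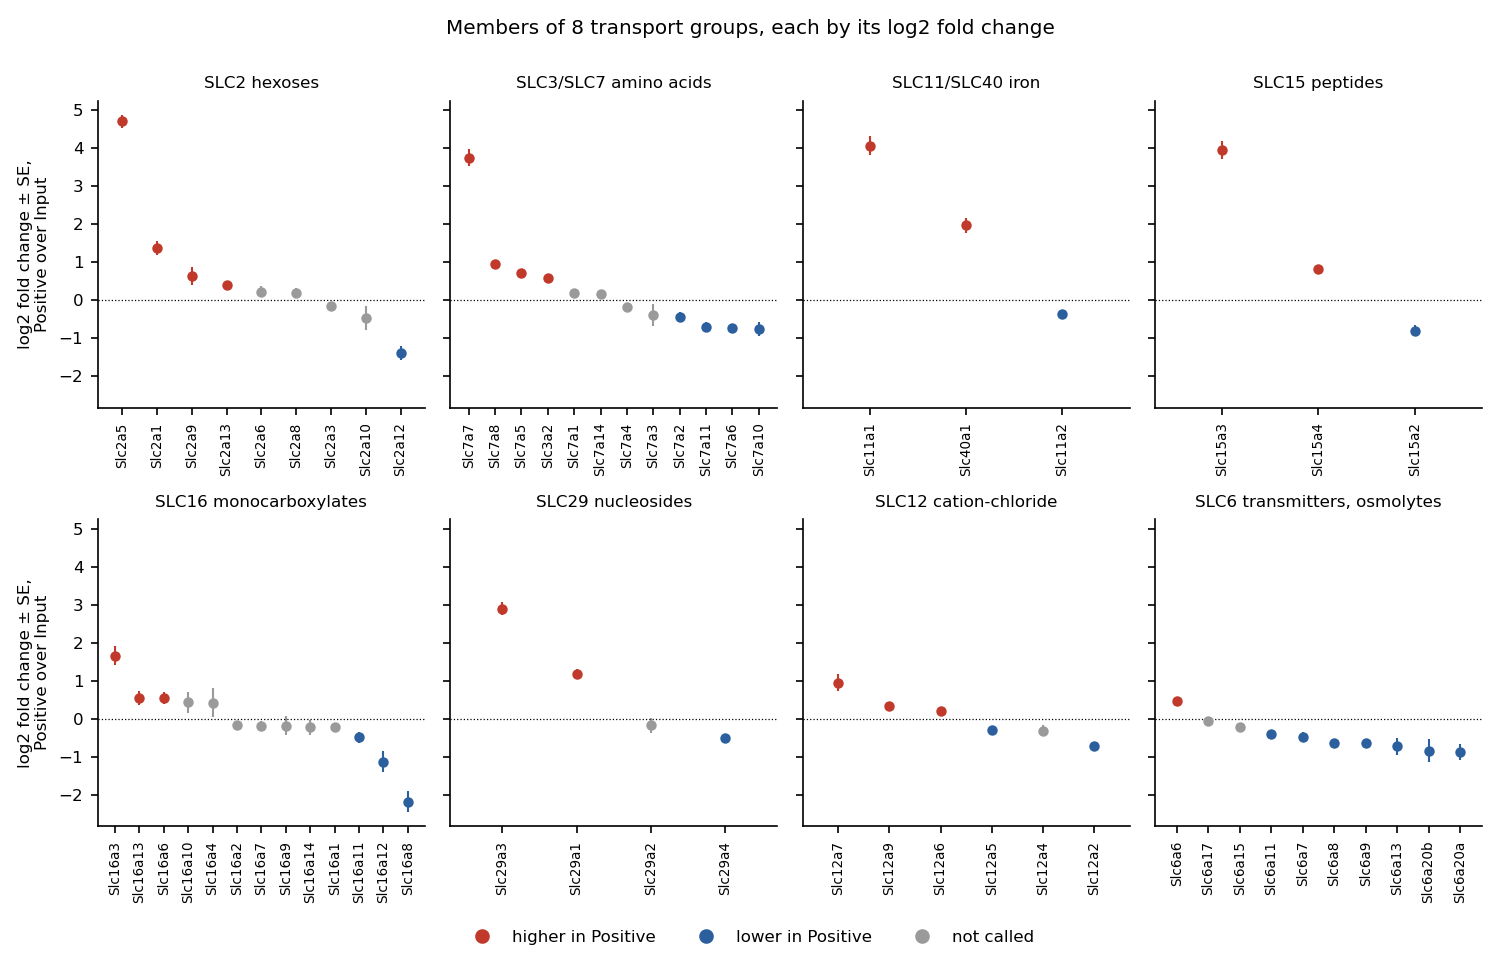
Log2 fold change of Positive over Input with its standard error for members tested of 8 transport groups, one panel per group, ordered from highest to lowest and coloured by call. In families SLC2, SLC7, SLC11, SLC15, SLC16, SLC29, SLC12 and SLC6, members called higher and lower stand side by side.

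Of 12 vesicular and plasma membrane transmitter carriers tested, 1 was higher and 4 lower. None of the 4 vesicular carriers tested was higher by edgeR (0 at an unadjusted p-value under 0.05 and 0 by DESeq2), and 1 was lower. Slc17a7 had 26349.6, 21259 and 22349.5 scaled reads in Input and 22506, 22496 and 26462 in Positive, with a log2 fold change of 0.03 ± 0.11 (SE) (edgeR adjusted p-value 0.842). Slc32a1, the vesicular GABA carrier, had 1412, 1191 and 1095 scaled reads in Input and 1417, 1258 and 1529 in Positive, with 0.18 ± 0.10 (log2, SE) and, without the Input library of animal 201, an adjusted p-value by edgeR of 0.0431. Slc17a6 (VGLUT2) had 349, 319 and 269 scaled reads in Input and 444, 327 and 353 in Positive, with 0.26 ± 0.14 (log2, SE). These 3 carriers overlapped between fractions. Slc17a8 (VGLUT3) was lower, with 64.3, 105 and 69.2 scaled reads in Input and 44.3, 39.1 and 47.8 in Positive and -0.87 ± 0.25 (log2, SE), and lost its call without the Input library of animal 207 or both of its libraries (edgeR adjusted p-values 0.0887 and 0.208).

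Of 8 plasma membrane transmitter carriers tested, 1 was higher and 3 lower. Slc1a2 (GLT-1) had 30841, 29782 and 32779 scaled reads in Input and 33851, 42698 and 37751 in Positive, a log2 fold change of 0.29 ± 0.10 (SE) (adjusted p-value 0.0371 by edgeR). The groups did not overlap, but the call did not survive leaving out any 1 of the 3 Input libraries, the Positive library of animal 207 or both libraries of 201 or of 207, nor total count scaling, with adjusted p-values by edgeR of 0.0826 to 0.385. Slc1a3 (GLAST), the other astrocytic glutamate carrier, had 7015, 6811 and 7229 scaled reads in Input and 6952, 6206 and 4953 in Positive, with -0.22 ± 0.11 (log2, SE) (adjusted p-value 0.119 by edgeR). It passed as lower without the Positive library of animal 201 and under total count scaling (adjusted p-values 0.0227 and 0.0437). Of family SLC6, which couples sodium and chloride, 7 of 11 members were lower and 1 higher. Slc6a9 (GlyT1) went from 628, 546 and 546 to 420.0, 334 and 342, with -0.65 ± 0.12 (log2, SE). Slc6a8, the creatine carrier, went from 1965, 1807 and 1955 to 1219, 1193 and 1288, with -0.63 ± 0.08 (log2, SE), and the astrocytic GABA carrier Slc6a11 (GAT3) from 2105, 1853 and 2008 to 1715, 1575 and 1242, with -0.40 ± 0.11 (log2, SE). The rise was that of Slc6a6, the taurine carrier, with 2282, 2058 and 2163 scaled reads in Input and 3181, 3162 and 2612 in Positive and 0.46 ± 0.09 (log2, SE). Of 8 enzymes of glutamate and GABA metabolism, 4 were higher, with the GABA synthesis enzymes Gad2 and Gad1 at 0.55 ± 0.09 (log2, SE) and 0.34 ± 0.08 (log2, SE).

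The lists from cell sorting gave the cell types in which the solute carriers are known. All 7 carriers of the microglia list were higher, by 0.54 (Slc16a6) to 4.71 (Slc2a5), with a median of 3.75, beside 3.65 for the 231 other genes of the list. Of 15 carriers of the astrocyte list, 10 were lower and 1, Slc1a2, was higher. Their median was -0.40, beside -0.43 for the 123 other genes. Both carriers of the oligodendrocyte list, Slc44a1 and Slc48a1, were lower, and of the 2 of the neuron list Slc2a13 was higher and Slc17a6 did not pass. The other 185 members tested were in none of the 4 lists, and 36 of them were higher and 51 lower. These 36 include Slc29a3, Slc39a8, Slc40a1, Slc9a9, Slc46a3 and Slc16a3. Of 9 carriers known from the blood-brain barrier, 5 were higher, Slc2a1 and Slc7a5 among them. None was lower by edgeR (0 at an unadjusted p-value under 0.05 and 0 by DESeq2). The lowest log2 fold change of the 9 was -0.23, that of Slc16a1. Slc16a1 passed as lower without the Input library of animal 201 and without both libraries of 201 (edgeR adjusted p-values 0.0235 and 0.0334). The endothelial markers rose in the same libraries, and the part of endothelial RNA was not tested.

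**Figure D5:**
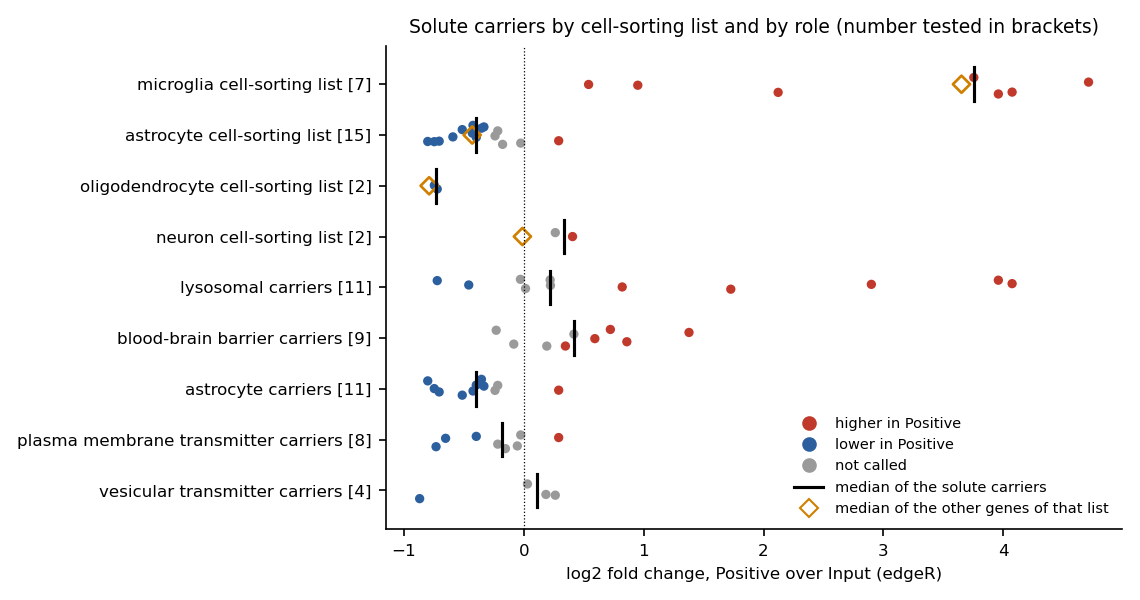
Log2 fold change of Positive over Input of the solute carriers in 4 cell-sorting lists and 5 lists by role, with each point a gene coloured by its call, the black bar the median of the carriers and the open diamond the median of the other genes of the sorting list. The 7 microglial carriers are all to the right of 0, and the astrocyte carriers are mostly to the left, with medians close to those of the other genes of their lists.

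Carriers left out by the rule gave other counts. Of 40 mitochondrial carriers of family SLC25, 2 were higher and 12 lower, with a median log2 fold change of -0.21. Of 8 organic anion carriers named Slco, 4 were higher and 1 lower. Slco2b1 went from 264, 221 and 215 to 4104, 5089.8 and 3488 scaled reads, with 4.18 ± 0.14 (log2, SE). Slco1a4, an endothelial carrier, went from 263, 276 and 286 to 1127, 874 and 489.9, with 1.59 ± 0.22 (log2, SE). Slco1a4 was highest in the Positive library of animal 201 and lowest in that of 208, the order of the endothelial sums. The sums of the mural, choroid plexus and astrocyte lists had this order too. The part of endothelial RNA in the rise of Slco1a4 was not tested.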

How the data were processed

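Per the labels and the methods of the study, poly(A) RNA was made into directional libraries and sequenced as read pairs, and the authors aligned reads to mm10 in Strand NGS, counted them per gene and normalized with DESeq. The deposited raw columns are expected counts, which need not be whole. The deposited normalized columns are log2 values and were not used. Groups and animals were taken from the sample titles, and 0 per-sample columns were unmapped.

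Expected counts were rounded and tested in R 4.3.3 with edgeR 4.0.16 (glmQLFit, glmQLFTest, unpaired as in the study, RLE scaling). Genes with more than 20 scaled reads in every library of a fraction were tested, 15343 of 15388, which left out 1 member, Slc6a12. Benjamini-Hochberg adjustment ran over all genes tested, with a threshold of 0.05. Fold changes are Positive over Input, and SE is derived from the F statistic. Lengths are unions of GENCODE M21 exons. In a simulation on 15084 genes, 192 of 200 changed genes were called, with 8 unchanged ones. The simulation gave every gene the same setting of spread between libraries and drew the libraries independently. It changed few genes, by the same factor up or down in equal number. It therefore does not give the error rate in the data, where 46% of genes passed. Errors cover 3 animals. Reads carry no molecular identifiers.

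Fractions of 1 animal share its number. Their deviations from the fraction means correlated at 0.203, 0.0606 and 0.125 in animals 201, 207 and 208, and the animal as a block was an alternative. The others were TMM and total count scaling, DESeq2 1.42.0, no filter, a filter at 100 scaled reads, a fold of 1.25, and leaving out libraries or animals.

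Named were the 12 largest and 8 smallest fold changes among members that passed, averaged 100 scaled reads or more and moved one way in 3 animals, up to 3 of highest mean per role list, and up to 2 per sorting list that went against its majority. 1 member that this rule names is not reported here, nor are some other genes. Other genes were named after their values were seen. The members, gene lists and tests were chosen with earlier results of these data known. The sorting lists come from the study's supplement. Slc4a1ap, Slc7a6os, Slc9a3r1 and Slc9a3r2 match the rule and are not carriers.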

Additional observations from a re-analysis of the deposited data

How the results depend on the processing

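The members higher and lower in Positive numbered 45 and 63. Leaving out single libraries or both libraries of an animal gave 26 to 48 higher and 36 to 63 lower, the lowest without both libraries of animal 207 (26 and 36, of which 59 of the 62 were also called with all libraries). With the animal as a replicate block there were 50 and 66, and all 108 were among them. DESeq2 gave 41 and 58, TMM 46 and 62, no filter 45 and 63, a filter at 100 scaled reads 36 and 60 of 184 tested, a minimum fold change 40 and 56, and total count scaling 34 and 77, which moved the share of higher calls from 41.7% to 30.6%. Leaving out the 4 members that are not carriers, chosen after seeing the data, gave 43 and 62. In all 15 other fits, 22 of the 45 and 28 of the 63 were called in the same direction. Of 63 members described with values, 9 lost a call in at least 1 fit and 5 gained one, among them Slc22a17, which passed as lower under total count scaling (edgeR adjusted p-value 0.0264). The direction turned in 2 that had not passed. Slc17a7 had a log2 fold change of -0.0465 under total count scaling and of -0.0790 to 0.1683 with libraries left out. Slc36a1 had -0.0128 under the filter at 100 and -0.0627 under total count scaling. The causes were not tested. The 103 members that missed the threshold are not shown to be equal between fractions with 3 animals each.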
